A study of Mus musculus with 17 samples.

Results

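Enzymes of phase II drug metabolism were followed in mouse kidney, as the protein-coding genes of the cytosolic glutathione transferases (Gst), the UDP-glycosyltransferases (Ugt) and the sulfotransferases (Sult). Members were taken by gene name and biotype, a rule that holds no measured value: names starting with Gst and a class letter (a, k, m, o, p, t or z), with Ugt1, Ugt2, Ugt3 or Ugt8, or with Sult and a digit. This took 62 genes (22 Gst, 22 Ugt and 18 Sult) of the 20222 protein-coding genes in the table. Of these, 31 had a mean level of 1 FPKM or more over all libraries and were counted as expressed: 18 Gst, 9 Ugt and 4 Sult. FPKM counts fragments per kilobase of gene length, scaled to the size of the library, and is a level per length. The other 31 had a lower mean, and 7 of them, Ugt2a1 and 6 Sult2a genes, were at 0 in every library. All 31 expressed members passed the filter on low values used for testing, and of the other 31 only Gsta1 and Ugt1a6a did.

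Conjugating enzymes attach a soluble group to reactive or fat-soluble compounds. Glutathione transferases add glutathione to electrophiles such as lipid peroxidation products, UDP-glycosyltransferases transfer a sugar from a UDP-sugar, most often glucuronic acid, to drugs, steroids and bilirubin, and sulfotransferases transfer sulfate from the donor PAPS to phenols, catecholamines and steroids. In the kidney this work is done mainly by the proximal tubule, which also takes up circulating conjugates, trims glutathione conjugates to mercapturates and secretes the products into urine.

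RNA of whole kidney was sequenced in 17 libraries. They were 7 with the genotype Gcgr shRNA, where the transcript of Gcgr, the glucagon receptor, was targeted in proximal tubule epithelial cells by a hairpin RNA, 6 with the genotype Ctr shRNA, and 4 wild-type libraries called control. Titles of both shRNA groups carry DKD, in a study of diabetic kidney disease, but those of the Ctr shRNA group say Vehicle, so whether a control hairpin or a vehicle was given is uncertain. The labels used here state no age, sex or strain, no way in which diabetes was induced and no route for the hairpin. Whether every library is a different animal is not stated either, and the p-values below therefore cover the spread among these samples, which may be technical.

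Libraries held 13997657 to 17107876 reads recovered from the FPKM values. All 18 listed markers of the proximal tubule were above 0 in every library. Gcgr, the target of the hairpin, was at 11.02 to 15.7 FPKM (mean 13.02 ± 1.70, SD, n = 7) in the libraries labelled Gcgr shRNA, at 5.89 to 11.8 FPKM (mean 9.74 ± 2.14, n = 6) in Ctr shRNA and at 21.5, 18.3, 19.4 and 23.8 FPKM (mean 20.8 ± 2.42, n = 4) in control. Both shRNA groups were lower than control (exact two-sided permutation p = 0.00606 for Gcgr shRNA and 0.00952 for Ctr shRNA). Gcgr shRNA exceeded Ctr shRNA (exact two-sided permutation p = 0.00816), which goes against that label, so every direction given for these libraries is that of libraries labelled so. These are levels of whole kidney, and Gcgr in the proximal tubule cells where it was targeted was not measured by itself. The library Ctr shRNA 20 stood apart: 9 fat cell markers summed to 770.6 FPKM there and to at most 56.2 FPKM elsewhere, and 9 markers of urothelium, the lining of bladder and renal pelvis, to 230.2 FPKM there and at most 30.6 FPKM elsewhere. In bulk tissue, fewer cells of a type and less RNA per cell cannot be told apart.

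A handful of genes carried most of the message of each family. Gstm1, Gstp1 and Gsta2, of the mu, pi and alpha classes, held 61.3% of the summed FPKM of the 18 expressed Gst genes. Ugt3a2 and Ugt2b38 held 76.3% of the Ugt sum, and 85.2% together with Ugt2b37. Sult1d1, which in the mouse sulfates dopamine and other catecholamines, held 88.2% of the Sult sum. Of the 31 expressed members, 25 reached 1 FPKM in all 17 libraries. Gstm6 lay just inside the threshold with a mean of 1.08 FPKM, and Gsta1 just outside it with 0.97 FPKM. The 8 genes of the Sult2a group, which sulfate hydroxysteroids and bile acids in liver, were all among those below 1 FPKM.

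The expressed genes of each family were also summed per library. The Gst sum was 1041 ± 114 FPKM in the libraries labelled Gcgr shRNA (SD, n = 7), 1193 ± 189 FPKM in Ctr shRNA (n = 6) and 990.1 ± 69.5 FPKM in control (n = 4). Ugt genes summed to 1101 ± 141 FPKM in the libraries labelled Gcgr shRNA, 1053 ± 222 FPKM in Ctr shRNA and 1078 ± 78.2 FPKM in control. Sult genes summed to 378 ± 31.5 FPKM in the libraries labelled Gcgr shRNA, 319 ± 81.2 FPKM in Ctr shRNA and 343 ± 62.9 FPKM in control. Within the Ugt family the subfamilies had unlike levels: Ugt2 genes summed to 518 ± 95.8 FPKM in the libraries labelled Gcgr shRNA, 540.0 ± 151 FPKM in Ctr shRNA and 427 ± 56.3 FPKM in control, and Ugt3 genes to 509.6 ± 56.2 FPKM in the libraries labelled Gcgr shRNA, 434 ± 93.6 FPKM in Ctr shRNA and 576 ± 30.0 FPKM in control. The alpha class of Gst summed to 172.5 ± 41.6 FPKM in the libraries labelled Gcgr shRNA, 241.5 ± 67.0 FPKM in Ctr shRNA and 117.6 ± 15.2 FPKM in control. These sums were not tested.

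**Figure D1:**
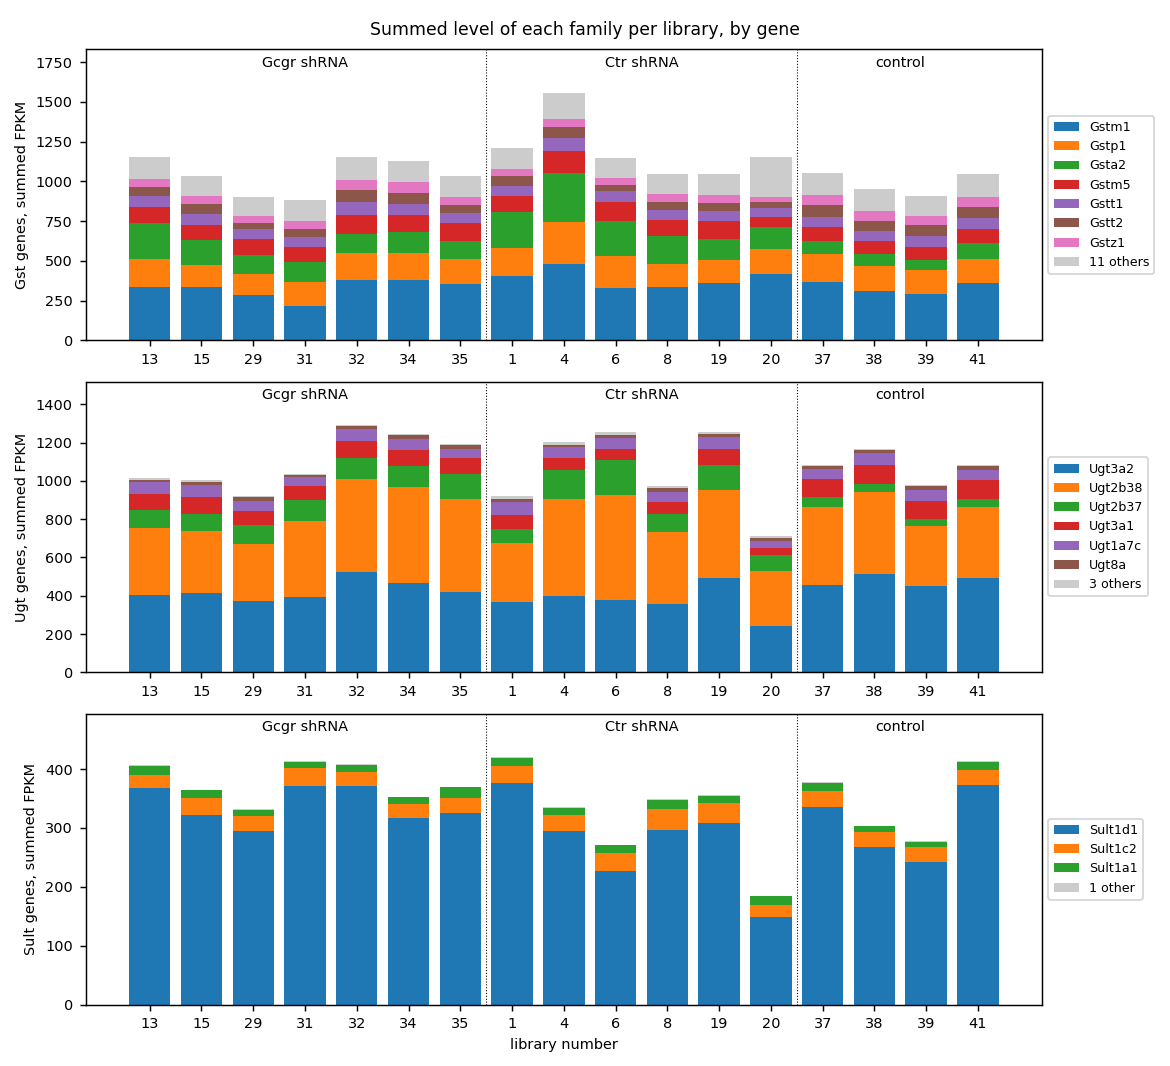
Summed FPKM of the expressed Gst, Ugt and Sult genes in each library (vertical axis) by library number (horizontal axis), with the Gcgr shRNA, Ctr shRNA and control groups from left to right and a colour for each of the leading genes. Ctr shRNA 4 has the tallest Gst bar, at 1556 FPKM, and Ctr shRNA 20 the shortest Ugt and Sult bars, at 711 and 185 FPKM.

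The first comparison asks how the diabetic kidneys labelled Ctr shRNA differ from control kidneys. Of the 31 expressed members 7 differed: 5 were higher and 2 were lower in Ctr shRNA (limma on log2(FPKM + 1), Benjamini-Hochberg over all 13279 genes tested, threshold 0.05). Among all genes tested 7.49% passed, 3.58% higher and 3.91% lower. The higher ones were Gsta2, Gstp3, Ugt1a10, Ugt2b37 and Ugt2b5, the lower ones Gstz1 and Ugt3a1, and no Sult gene was among them. The groups did not overlap for 6 members, 4 higher and 2 lower, beside 10.1% of all genes tested (4.71% higher and 5.41% lower). At an unadjusted p under 0.05 there were 13 members, beside 23.4% of all genes tested. The members' median log2 fold change was 0.09, beside 0.01 for all genes tested. Ugt1a10 and Gstp3 stayed below 1 FPKM in every control library and reached the filter through the shRNA groups alone, so they could only be higher there. Leaving out Ctr shRNA 20 gave 8 members, as Gstm5 also passed (adjusted p = 0.0109, and 0.0109 to 0.328 over its alternatives, limma).

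Among the alpha class, whose enzymes reduce lipid hydroperoxides and conjugate products of lipid peroxidation, Gsta2 was higher in Ctr shRNA (ENSMUSG00000057933, GRCm38 chr9:78331018-78355788, minus strand). Its lowest, median and highest levels were 132, 197 and 308 FPKM in Ctr shRNA, and the 4 control libraries had 84.0, 76.3, 68.3 and 100.3 FPKM. No Ctr shRNA library came down to the control range. The log2 fold change was 1.22 ± 0.23 (SE; adjusted p = 0.0040, limma), or 2.32-fold. In the libraries labelled Gcgr shRNA the lowest, median and highest levels were 108, 124 and 224 FPKM, also above all controls, with a log2 fold change over control of 0.75 ± 0.22 that did not pass (adjusted p = 0.099, limma). Of the 50-base stretches of Gsta2 transcripts, 49.8% also occur in other genes, 36.0% in Gsta1, so how its reads were divided among near copies is uncertain. Gsta1, singled out after its values were seen, had a mean below 1 FPKM: 1.52 ± 0.77 FPKM in Ctr shRNA and 0.27 ± 0.24 FPKM in control, with 90.5% of its 50-base stretches found in other genes. It stayed below 1 FPKM in every control library and entered the test through the shRNA groups alone, so it could only be higher there. It passed (log2 fold change 0.95 ± 0.25, adjusted p = 0.031, limma), but not when Ctr shRNA 1, 4 or 6 or control 37 or 38 was left out, with adjusted p of 0.059 to 0.102, nor without the filter or with voom.

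In the pi class, Gstp3 was at 1.27, 2.80 and 5.61 FPKM in Ctr shRNA (lowest, median and highest) and at 0.80, 0.81, 0.09 and 0.53 FPKM in the 4 control libraries (ENSMUSG00000058216, chr19:4057477-4059446, minus strand). The groups did not overlap, and the log2 fold change was 1.26 ± 0.27 (SE; adjusted p = 0.0088, limma). These levels rest on few reads, 206 over the 6 Ctr shRNA libraries and 24 over the 4 control libraries. Its neighbour Gstp1, the abundant pi class enzyme, was at 181 ± 44.7 FPKM in Ctr shRNA and 157.6 ± 10.7 FPKM in control and did not pass (log2 fold change 0.17 ± 0.14). No 50-base stretch of Gstp3 occurs in another gene, whereas 33.7% of those of Gstp1 occur in Gstp2.

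Gstz1, the zeta class enzyme that acts as maleylacetoacetate isomerase in tyrosine breakdown, was lower (ENSMUSG00000021033, chr12:87147165-87164723, plus strand). Its levels were 34.3, 47.2 and 51.3 FPKM in Ctr shRNA (lowest, median and highest) and 65.8, 61.9, 57.7 and 61.5 FPKM in the control libraries. The groups did not overlap, and the log2 fold change was -0.44 ± 0.12 (SE; adjusted p = 0.032, limma). The call was lost when Ctr shRNA 1 or 6 or any of the 4 control libraries was left out, with adjusted p of 0.055 to 0.103, and also without the filter (0.070; 0.0039 to 0.103 over its alternatives, limma). Of its exon bases, 12.2% overlap exons of Pomt2 and Gm6566.

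Gstm1 and Gstp1, the most abundant Gst genes, did not pass. Gstm1, of the mu class, was at 330.2, 383 and 482 FPKM in Ctr shRNA (lowest, median and highest) and at 369, 309, 291 and 363 FPKM in the control libraries, and these ranges overlapped. Gstm5, another mu class gene, was at 106 ± 24.5 FPKM in Ctr shRNA and 81.6 ± 4.70 FPKM in control (log2 fold change 0.34 ± 0.15, adjusted p = 0.158, limma). Gstt1, of the theta class, was at 65.1 ± 9.53 FPKM in Ctr shRNA and 68.6 ± 4.68 FPKM in control. Gstm7 had the lowest adjusted p of the members that did not pass, with 3.18 ± 1.04 FPKM in Ctr shRNA and 5.09 ± 0.663 FPKM in control (log2 fold change -0.58 ± 0.19, adjusted p = 0.072, limma), and it passed without Gcgr shRNA 31 or without Ctr shRNA 19, with adjusted p of 0.041 and 0.039 (0.019 to 0.166 over its alternatives).

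Gstm2 and Gsta4, singled out after their values were seen, had levels set apart in a single library. Gsta4, an alpha class enzyme that conjugates the lipid peroxidation product 4-hydroxynonenal, was at 45.2 FPKM in Ctr shRNA 20 and at 6.65 to 13.2 FPKM in the other 5 Ctr shRNA libraries. Gstm2 was at 93.5 FPKM there and at 11.4 to 14.3 FPKM in the others. With all libraries their log2 fold changes over control were 0.05 ± 0.33 and 0.09 ± 0.42, and without Ctr shRNA 20 they were -0.31 and -0.37, with adjusted p of 0.167 and 0.086 (limma). Over their alternatives the adjusted p had its lowest value at 0.161 for Gsta4 and at 0.086 for Gstm2. Fat and urothelium markers were raised in that library, and their part in these levels was not tested. Over the 31 expressed members Ctr shRNA 20 was the highest of the 17 libraries for 4 (Gsto1, Gstm2, Gsta4 and Gstt3) and the lowest for 11. Over all genes tested it was the highest for 13.1% and the lowest for 16.4%.

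**Figure D2:**
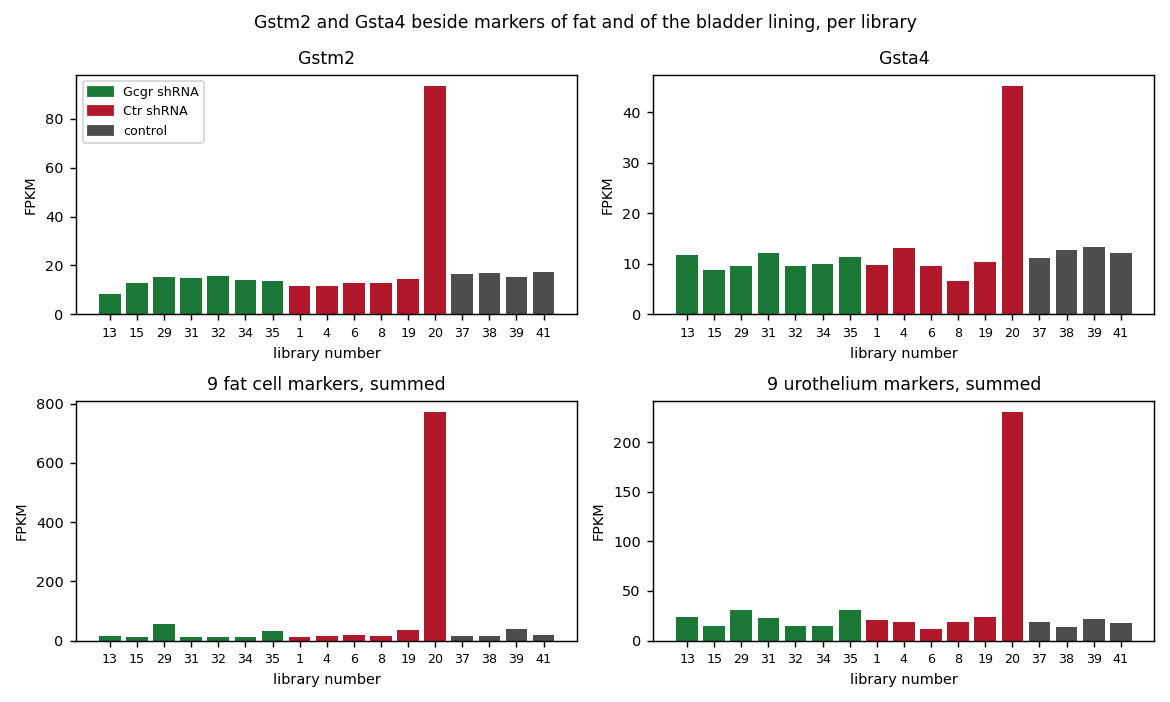
FPKM (vertical axes) of Gstm2 and Gsta4 and the summed FPKM of the fat cell and urothelium marker lists in each library (horizontal axes, library number), with the groups Gcgr shRNA, Ctr shRNA and control from left to right. In Ctr shRNA 20 Gstm2 is at 93.5 FPKM, Gsta4 at 45.2 FPKM, and the marker sums are at 770.6 and 230.2 FPKM, above all other libraries in each panel.

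Of the UDP-glycosyltransferases 4 of 9 passed. Ugt2b37 was higher in Ctr shRNA (ENSMUSG00000057425, chr5:87240493-87254804, minus strand). It belongs to a subfamily whose enzymes glucuronidate steroids, bile acids and drugs. Levels in Ctr shRNA were 73.6, 113.6 and 180.4 FPKM (lowest, median and highest), and the control libraries had 52.2, 43.6, 32.2 and 44.5 FPKM. All Ctr shRNA libraries lay above all controls, and the log2 fold change was 1.39 ± 0.21 (SE; adjusted p = 0.000845, limma), or 2.62-fold. The libraries labelled Gcgr shRNA had 92.2, 109 and 127 FPKM, also without overlap, and a log2 fold change over control of 1.30 ± 0.20 that passed as well (adjusted p = 0.0023, limma). Both comparisons share the 4 control libraries. Of its 50-base stretches 18.3% occur in other genes.

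Ugt2b38, a near neighbour and the second most abundant Ugt gene, did not pass. Its levels were 287, 418 and 551 FPKM in Ctr shRNA (lowest, median and highest) and 405, 428, 315 and 369 FPKM in the control libraries (log2 fold change 0.09 ± 0.19). The groups overlapped widely. Ugt2b5, another gene of this stretch, was at 3.51, 5.14 and 7.17 FPKM in Ctr shRNA and at 3.61, 2.89, 2.73 and 2.78 FPKM in control, with 1 Ctr shRNA library inside the control range. Its log2 fold change was 0.65 ± 0.15 (SE; adjusted p = 0.016, limma), and the call was lost without control 38 or without control 39, with adjusted p of 0.052 and 0.061 (0.0015 to 0.061 over its alternatives). Of its 50-base stretches 34.8% occur in Ugt2b38, which was far more abundant, so how its reads were counted is uncertain.

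The start regions of Ugt2b37 and Ugt2b38 are shown because these regions are much alike, while Ugt2b37 passed and Ugt2b38 did not. The transcripts are less alike: 11.5% of the 50-base stretches of Ugt2b37 occur in Ugt2b38, and 15.2% in Ugt2b5. The difference between the changes of Ugt2b37 and Ugt2b38 was not tested. Windows reaching 250 bases before and 50 bases after the start (RefSeq, GRCm38.p6) were 87.3% identical over 314 aligned columns, the closest of 35 pairs compared within a class or subfamily. The 250 bases before each start are printed 5′ to 3′, from chr5:87254789-87255038 and chr5:87424204-87424453, both on the minus strand, and capitals mark bases that differ or have no partner in the alignment.
Ugt2b37: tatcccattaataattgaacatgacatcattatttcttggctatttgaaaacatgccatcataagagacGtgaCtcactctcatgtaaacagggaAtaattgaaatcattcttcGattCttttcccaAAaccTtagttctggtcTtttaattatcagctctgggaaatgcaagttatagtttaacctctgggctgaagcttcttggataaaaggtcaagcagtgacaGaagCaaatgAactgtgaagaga
Ugt2b38: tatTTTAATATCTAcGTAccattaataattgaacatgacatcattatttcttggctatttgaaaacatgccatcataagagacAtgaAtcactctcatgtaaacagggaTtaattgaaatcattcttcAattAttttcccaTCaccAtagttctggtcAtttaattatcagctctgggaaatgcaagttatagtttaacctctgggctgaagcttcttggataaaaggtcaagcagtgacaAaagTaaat
Between Ugt2b38 and Ugt2b5 the windows were 84.2% identical, and between Ugt2b37 and Ugt2b5 76.5%.

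The whole stretch, GRCm38 chr5:86889767-87591594, holds 13 members, of which 6 were expressed. In chromosomal order these were Ugt2b34, Ugt2b5, Ugt2b37, Ugt2b38, Sult1b1 and Sult1d1. Only Ugt2b5 and Ugt2b37 passed in Ctr shRNA against control. Ugt2b34, whose values were 1.24 ± 0.443 FPKM in Ctr shRNA and 1.81 ± 0.478 FPKM in control, had a log2 fold change of -0.34 ± 0.17. Sult1d1 at the far end had -0.18 ± 0.19.

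**Figure D3:**
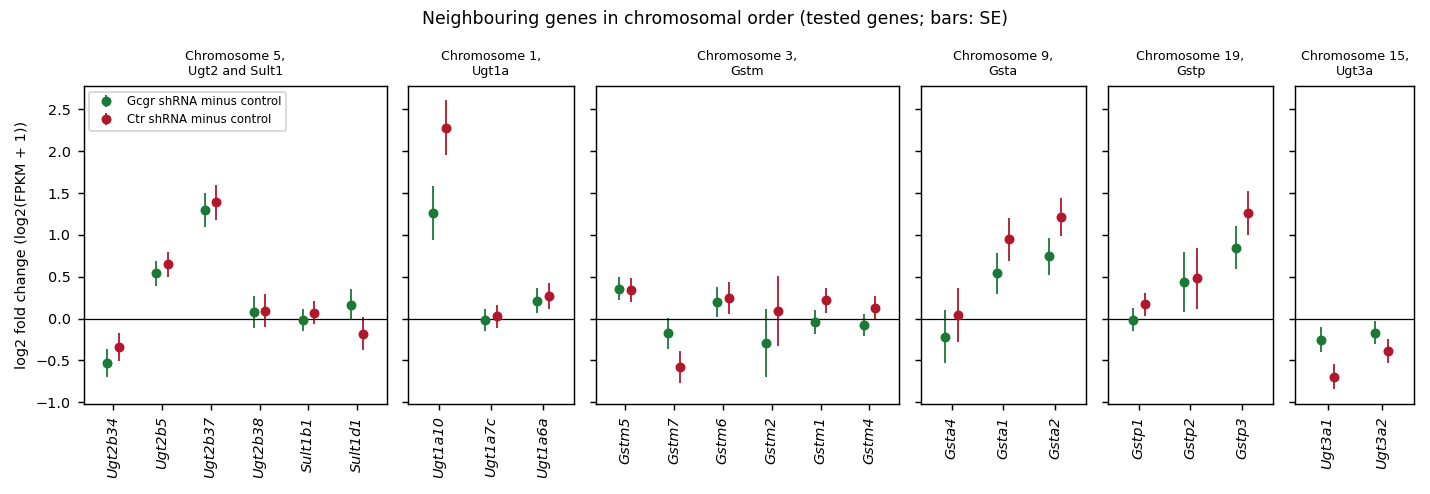
Log2 fold change with its SE (vertical axis, on the log2(FPKM + 1) scale) of the tested members in 6 chromosomal clusters, in chromosomal order and not to scale (horizontal axis), for Gcgr shRNA against control (left point, green) and Ctr shRNA against control (right point, red). On chromosome 5 Ugt2b37 lies at 1.30 and 1.39 beside Ugt2b38 at 0.08 and 0.09, and on chromosome 1 Ugt1a10 lies at 1.26 and 2.28 beside Ugt1a7c at -0.02 and 0.03.

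Ugt1a10 had the largest log2 fold change of the 31 members. The Ugt1a locus on chromosome 1 makes its enzymes from alternative first exons joined to common later exons, and the table lists 9 genes there (chr1:88055388-88220002). Ugt1a10 (ENSMUSG00000090165) was at 4.45, 5.28 and 9.29 FPKM in Ctr shRNA (lowest, median and highest) and at 0.75, 0.37, 0.29 and 0.47 FPKM in the control libraries. There was no overlap, and the log2 fold change was 2.28 ± 0.33 (SE; adjusted p = 0.000625, limma). On this scale the change of so low a gene is understated. In the libraries labelled Gcgr shRNA it spread from 0.76 to 6.28 FPKM with a median of 2.64 FPKM, again above all controls, with a log2 fold change over control of 1.26 ± 0.32 at an adjusted p of 0.0505 (limma), which just missed the threshold. It passed when Gcgr shRNA 32, Gcgr shRNA 34 or Ctr shRNA 4 was left out, with adjusted p of 0.025, 0.018 and 0.049, and its log2 fold change was 2.17 with a pseudocount of 0.1 (adjusted p of 0.014 to 0.169 over its alternatives).

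Counting could split reads of this locus in unknown ways, since 64.3% of the exon bases of Ugt1a10 and 54.6% of those of Ugt1a7c belong to other genes too. Ugt1a7c held 94.4% of the 68180 reads given to the 9 genes. Its level was 57.5 ± 10.4 FPKM in Ctr shRNA and 55.7 ± 5.29 FPKM in control (log2 fold change 0.03 ± 0.14). Ugt1a10 had 742 reads over the 7 libraries labelled Gcgr shRNA, 1448 over the 6 of Ctr shRNA and 64 over the 4 controls. Scaled to library size (RPM) this was 6.74 ± 4.82 in the libraries labelled Gcgr shRNA, 14.7 ± 5.33 in Ctr shRNA and 1.06 ± 0.453 in control. All 9 genes together had 245.8 ± 40.0 RPM in the libraries labelled Gcgr shRNA, 266 ± 39.9 in Ctr shRNA and 241 ± 21.1 in control.

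Ugt3a1 was lower in Ctr shRNA (ENSMUSG00000072664, chr15:9276888-9315032, plus strand). In humans the UGT3A enzymes use UDP-sugars other than UDP-glucuronic acid. Levels were 36.0, 62.1 and 80.1 FPKM in Ctr shRNA (lowest, median and highest) and 94.3, 97.5, 96.4 and 99.4 FPKM in the control libraries, which lay close together and above all others. The log2 fold change was -0.69 ± 0.15 (SE; adjusted p = 0.0094, limma). The libraries labelled Gcgr shRNA were at 72.9, 83.8 and 90.8 FPKM, also below all controls, but did not pass (log2 fold change -0.25 ± 0.14, adjusted p = 0.41, limma). Its neighbour Ugt3a2, the most abundant Ugt gene, was at 244, 372 and 491 FPKM in Ctr shRNA and at 459, 513, 452 and 492 FPKM in control. Its log2 fold change of -0.39 ± 0.14 did not pass (adjusted p = 0.108, limma), though it did without Ctr shRNA 19 and, at the same total FPKM per library, with adjusted p of 0.034 and 0.018 (0.018 to 0.247 over its alternatives).

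Promoter letters were searched on both strands of the windows, which 28 of the 31 expressed members had. The core of the antioxidant response element, TGACNNNGC, was found for 3 members (Gsta3, Gstm5 and Gstm7), and in 12.4% of 32851 promoters of all genes. The core bound by the aryl hydrocarbon receptor, GCGTG, was found for 8, and in 32.4% of all promoters. A core of the site of HNF1, a tubule and liver transcription factor, GTTAAT, was found for 5 members (Gsta3, Sult1a1, Sult1d1, Ugt1a10 and Ugt3a1), and in 7.1% of all promoters. Of the 7 members that passed, Gsta2 and Gstp3 held GCGTG, and Ugt1a10 and Ugt3a1 held GTTAAT. The last pair is shown because these 2 members had the highest and the lowest log2 fold change of the 7. The RefSeq start used for Ugt3a1 lies inside the gene as placed by the deposited positions (chr15:9276888-9315032), and so do its printed bases. The 250 bases before each RefSeq start are given 5′ to 3′, from chr1:88055161-88055410 and chr15:9279579-9279828, both on the plus strand, and capitals mark GTTAAT or its reverse complement.
Ugt1a10: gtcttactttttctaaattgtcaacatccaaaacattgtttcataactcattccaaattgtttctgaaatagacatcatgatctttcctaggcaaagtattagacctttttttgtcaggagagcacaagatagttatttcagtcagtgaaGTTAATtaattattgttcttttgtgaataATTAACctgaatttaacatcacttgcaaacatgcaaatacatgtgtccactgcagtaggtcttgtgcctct
Ugt3a1: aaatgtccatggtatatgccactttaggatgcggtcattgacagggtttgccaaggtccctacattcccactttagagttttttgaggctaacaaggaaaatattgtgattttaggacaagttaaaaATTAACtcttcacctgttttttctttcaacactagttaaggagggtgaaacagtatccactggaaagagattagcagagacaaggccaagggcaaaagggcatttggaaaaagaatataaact
A match of letters is a description and not a bound site.

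None of the 4 expressed sulfotransferases passed in any comparison (limma), and 0 had an unadjusted p under 0.05. Sult1d1 was at 149, 296 and 377 FPKM in Ctr shRNA (lowest, median and highest), and at 336, 268, 242 and 372 FPKM in the control libraries. The groups overlapped, with Ctr shRNA 20 lowest. Sult1c2 was at 20.1, 29.2 and 35.6 FPKM in Ctr shRNA and at 26.98, 24.9, 26.5 and 25.9 FPKM in control. Sult1a1, which sulfates phenols, was at 12.1, 13.1 and 15.4 FPKM in Ctr shRNA and at 13.1, 10.1, 8.26 and 14.0 FPKM in control, and had the lowest adjusted p of the 4, at 0.342 (limma).

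**Figure D4:**
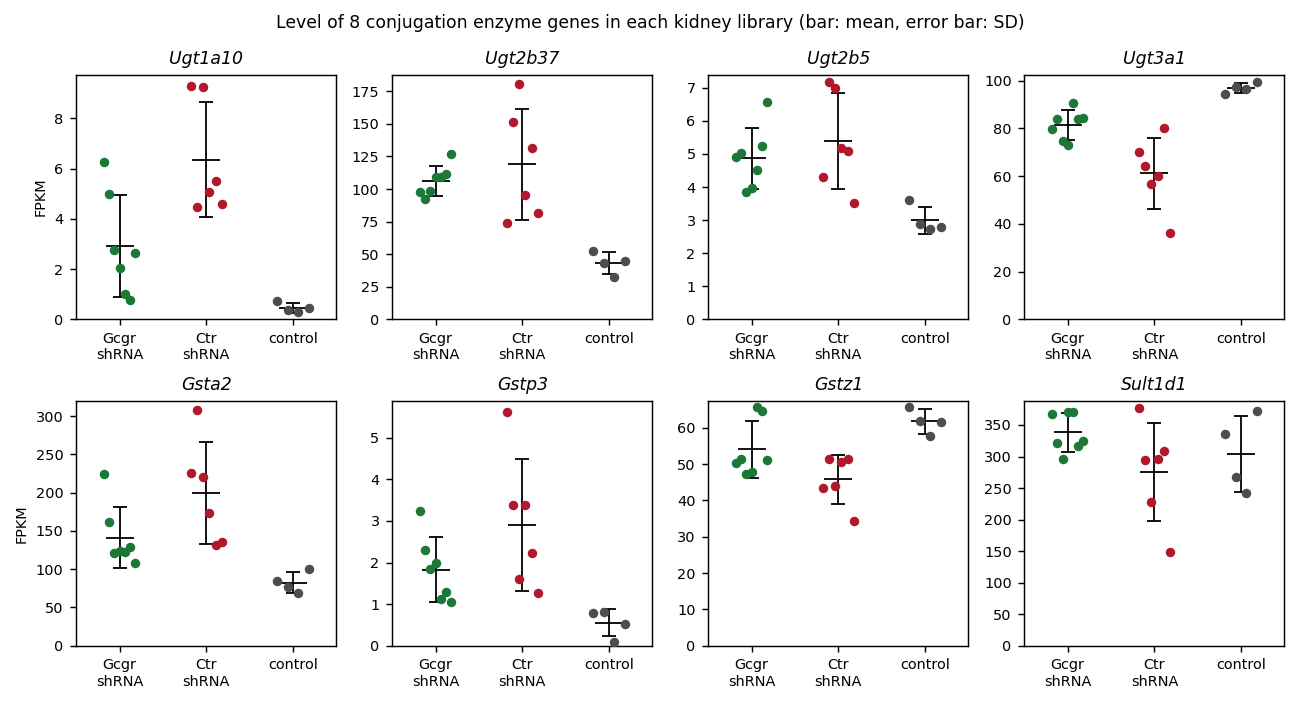
FPKM (vertical axes) of the 7 members that passed in Ctr shRNA against control and of Sult1d1 in each library (points) of the Gcgr shRNA, Ctr shRNA and control groups from left to right, with mean and SD. Ugt1a10, at 0.29 to 0.75 FPKM in control, does not overlap with either shRNA group, and the Ugt3a1 points of control, at 94.3 to 99.4 FPKM, lie above all others.

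The second comparison sets the libraries labelled Gcgr shRNA against Ctr shRNA, both from kidneys titled as diabetic, and it shares the Ctr shRNA libraries with the first. No member passed, and 0 of the 13279 genes tested passed (limma, a background of 0%). At an unadjusted p under 0.05 there were 6 members, beside 7.32% of all genes tested, and voom on the recovered reads called 0 genes. No member had groups without overlap, beside 0.203% of all genes tested (0.105% higher and 0.0979% lower). The lowest adjusted p belonged to Ugt1a10, at 2.93 ± 2.03 FPKM in the libraries labelled Gcgr shRNA and 6.36 ± 2.29 FPKM in Ctr shRNA, with a log2 fold change of -1.02 ± 0.28 (SE; adjusted p = 0.330, limma). Ugt3a1 followed, at 81.5 ± 6.22 FPKM in the libraries labelled Gcgr shRNA and 61.2 ± 14.8 FPKM in Ctr shRNA (log2 fold change 0.44 ± 0.13, adjusted p = 0.345, limma).

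Among the Gst genes the lowest unadjusted p belonged to Gsta3, an alpha class gene, and Gstm7. Gsta3 was at 20.9 ± 2.77 FPKM in the libraries labelled Gcgr shRNA and 26.5 ± 5.50 FPKM in Ctr shRNA (log2 fold change -0.32 ± 0.11, adjusted p = 0.506, limma). Gstm7 was at 4.47 ± 1.06 FPKM in the libraries labelled Gcgr shRNA and 3.18 ± 1.04 FPKM in Ctr shRNA (0.40 ± 0.16, adjusted p = 0.594). Of the Sult genes Sult1d1 was at 338 ± 30.7 FPKM in the libraries labelled Gcgr shRNA and 275 ± 78.2 FPKM in Ctr shRNA (0.35 ± 0.17, adjusted p = 0.685), and Sult1c2 was at 26.0 ± 3.05 FPKM in the libraries labelled Gcgr shRNA and 29.1 ± 5.62 FPKM in Ctr shRNA (-0.14 ± 0.11). Ugt2b37 was at 106 ± 11.5 FPKM in the libraries labelled Gcgr shRNA and 119 ± 42.4 FPKM in Ctr shRNA (-0.09 ± 0.18). A fold change that misses the threshold does not show that the groups are alike.

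The third comparison sets the libraries labelled Gcgr shRNA against control, and it shares its libraries with the other two. Of the 31 expressed members 1, Ugt2b37, passed (3.23%), and it was higher, beside 2.02% of all genes tested (1.42% higher and 0.595% lower). At an unadjusted p under 0.05 there were 8 members, beside 16.2% of all genes tested. The groups did not overlap for 7 members, 6 higher (Gsta2, Gstm5, Gstp3, Ugt1a10, Ugt2b37 and Ugt2b5) and 1 lower (Ugt3a1), beside 5.54% of all genes tested (3.31% higher and 2.23% lower). Gstp3 and Ugt1a10 stayed below 1 FPKM in every control library and entered the test through the shRNA groups alone. These 2 could therefore only be higher. Gstp3 was at 1.83 ± 0.775 FPKM in the libraries labelled Gcgr shRNA and 0.56 ± 0.336 FPKM in control (log2 fold change 0.85 ± 0.26, adjusted p = 0.110, limma). Ugt2b5 was at 4.87 ± 0.917 FPKM in the libraries labelled Gcgr shRNA and 3.00 ± 0.409 FPKM in control (0.54 ± 0.15, adjusted p = 0.073), and it passed without Ctr shRNA 4 or without Ctr shRNA 20, which enter the shared estimate of spread, with adjusted p of 0.046 and 0.036 (0.0077 to 0.237 over its alternatives). Gstm5 was at 105 ± 10.4 FPKM in the libraries labelled Gcgr shRNA and 81.6 ± 4.70 FPKM in control (0.36 ± 0.14, adjusted p = 0.214). Ugt2b34, singled out after its values were seen, had the lowest log2 fold change of the 31 members here, at -0.53 ± 0.17, and did not pass. The lowest adjusted p of a Sult gene was 0.658, for Sult1a1 (limma).

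**Figure D5:**
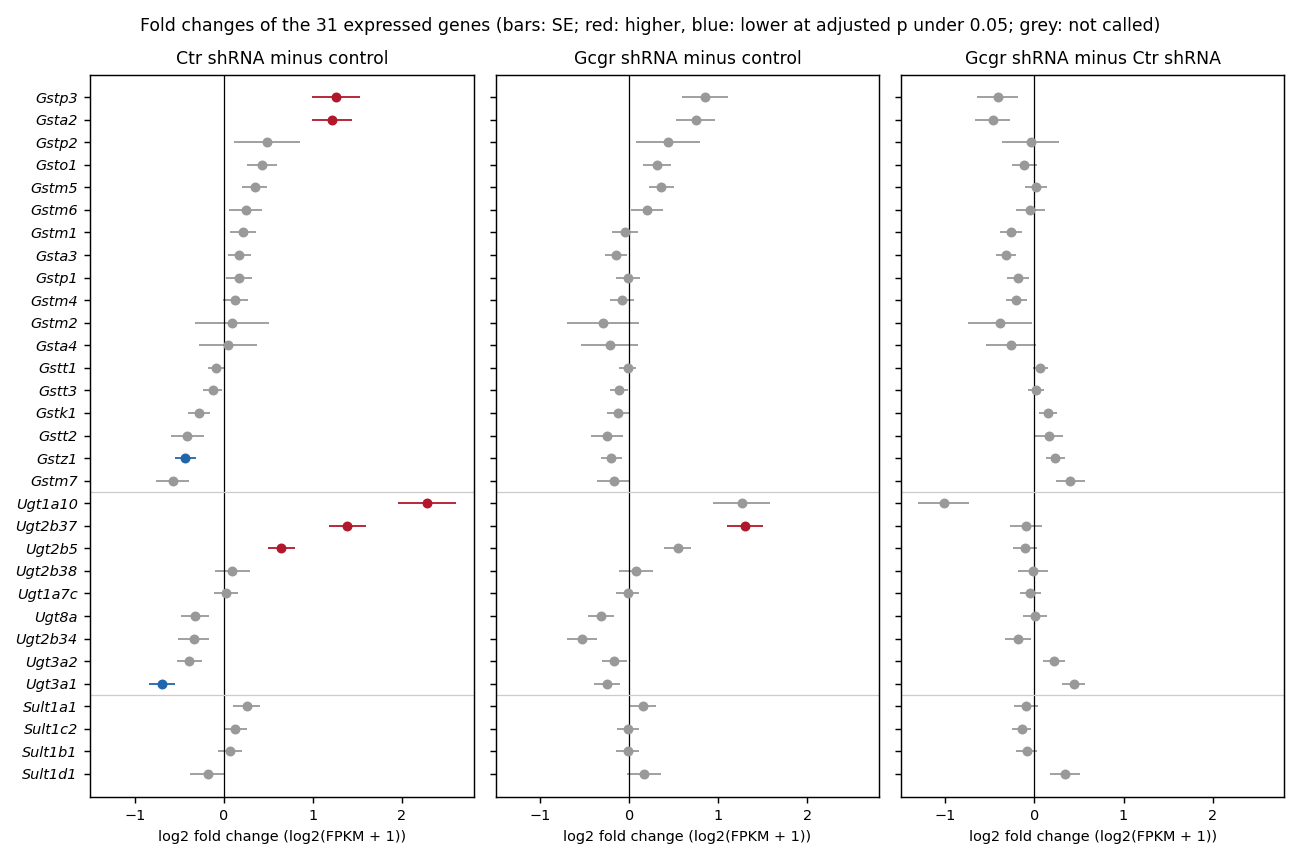
Log2 fold change with its SE (horizontal axes, log2(FPKM + 1) scale) of the 31 expressed members (rows, by family and then by fold change) in Ctr shRNA against control, Gcgr shRNA against control and Gcgr shRNA against Ctr shRNA. Red points passed as higher, blue as lower and grey did not pass: 7 members passed in the left panel, 1 (Ugt2b37) in the middle and 0 on the right.

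Genes that feed or clear these reactions were read from 11 lists. Their counts in Ctr shRNA against control stand beside 7.49% of all genes tested that passed there, 3.58% higher and 3.91% lower. In Ctr shRNA against control, 0 of 9 tested genes of glutathione synthesis and reduction passed, with a median log2 fold change of 0.04 beside 0.01 for all genes tested, and the lowest adjusted p was 0.057 for Ggct (limma). Of 10 other glutathione transferases and relatives 3 were higher and 0 lower: the microsomal transferase Mgst1, at 61.1 ± 8.14 FPKM in Ctr shRNA and 29.6 ± 3.86 FPKM in control (log2 fold change 1.02 ± 0.13), the leukotriene C4 synthase Ltc4s, at 8.24 ± 1.504 FPKM in Ctr shRNA and 3.53 ± 0.711 FPKM in control, and the chloride channel protein Clic1. The median of this list was 0.27. Mgst1 and Ltc4s also rose in the libraries labelled Gcgr shRNA over control, to 51.9 ± 8.42 and 8.89 ± 1.55 FPKM. Of 18 genes listed for mercapturate formation and related steps (median -0.19) 2 were lower and 0 higher in Ctr shRNA, and both belong to related steps. They were Acy1, which deacetylates N-acetylated amino acids, at 27.2 ± 5.04 FPKM in Ctr shRNA and 54.9 ± 2.71 FPKM in control (log2 fold change -1.01 ± 0.17, adjusted p = 0.0021, limma), and Kyat3, which can cleave cysteine conjugates.

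Of 13 genes of UDP-glucuronate supply and deconjugation (median -0.17) 2 were lower in Ctr shRNA and 0 higher: Miox, which opens the inositol ring to give glucuronic acid and is a proximal tubule marker, at 609 ± 78.2 FPKM in Ctr shRNA and 1051 ± 147 FPKM in control, and Gusb, the lysosomal enzyme that removes glucuronic acid. Of 16 genes of PAPS supply and sulfate ester cleavage (median -0.00) 2 were lower and 2 higher. The lower ones were Papss2, which makes PAPS, at 57.9 ± 13.04 FPKM in Ctr shRNA and 99.98 ± 5.95 FPKM in control (log2 fold change -0.81 ± 0.15, adjusted p = 0.0032, limma), and Bpnt1, and the higher ones Slc26a6, an anion exchanger, and Arsa, a sulfatase. Of 14 other conjugating enzymes (median -0.33) 3 were lower in Ctr shRNA, the acyl-CoA ligases Acsm1, Acsm3 and Acsm5, relatives of the enzymes that activate acids for glycine conjugation. Of 13 efflux transporters (median -0.13) Abcc6 and Abcc10 were lower and 0 higher.

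Of 15 regulators that sense xenobiotics (median -0.02), 1 was higher and 0 lower in Ctr shRNA: Nfe2l2, which encodes NRF2, an activator of many Gst genes, at 32.8 ± 4.98 FPKM in Ctr shRNA and 20.2 ± 1.94 FPKM in control (log2 fold change 0.67 ± 0.12, adjusted p = 0.0037, limma). Of 20 tested NRF2 targets outside the families 2 were higher, beside 3.58% of all genes tested: Ephx1, the microsomal epoxide hydrolase, at 70.9 ± 10.6 FPKM in Ctr shRNA and 17.2 ± 1.64 FPKM in control (1.97 ± 0.13, adjusted p = 1.73e-07), and Tkt. The median of this list was 0.27. Of 7 listed targets of the aryl hydrocarbon receptor 3 reached the filter, and 0 passed, with the lowest adjusted p at 0.891 for Cyp1b1 (limma). Of 13 listed targets of the receptors CAR and PXR only 4 reached the filter. Of these 2 were higher, Aldh1a1 at 9.30 ± 2.26 FPKM in Ctr shRNA and 2.15 ± 0.526 FPKM in control, and Aldh1a7. The 2 others leaned lower and did not pass. Nfe2l2, Ephx1, Aldh1a1 and Aldh1a7 also passed as higher in the libraries labelled Gcgr shRNA against control, where 1.42% of all genes tested did. Miox, Acsm1 and Abcc10 passed as lower there (log2 fold changes -0.64 ± 0.12, -0.60 ± 0.12 and -0.31 ± 0.07), beside 0.595% of all genes tested. Gulo, of the UDP-glucuronate list, passed as higher there, at 1.16 ± 0.770 FPKM beside 0.09 ± 0.049 FPKM in control. It reached the filter through the shRNA groups alone, so it could only be higher. Within the diabetic kidneys 0 genes of the 11 lists passed, and the lowest adjusted p was 0.270, for Tkt and Kyat3 (limma).

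Markers of some cell types moved along with these groups. Among all genes tested 3.91% were lower and 3.58% higher in Ctr shRNA against control. In Gcgr shRNA against control 0.595% were lower and 1.42% higher. Of 18 proximal tubule markers 7 were lower and 0 higher in Ctr shRNA against control, and 5 lower and 1 higher without Ctr shRNA 20. The summed level of the 18 was 21952 to 44871 FPKM in the libraries labelled Gcgr shRNA, 16159 to 35588 FPKM in Ctr shRNA and 33278 to 44493 FPKM in control. Most of this sum was a single gene, Kap. It was at 16825 to 38127 FPKM in the libraries labelled Gcgr shRNA, 11733 to 29001 FPKM in Ctr shRNA and 25260 to 37684 FPKM in control. Of the other tubule lists, 5 of 10 thick ascending limb, 3 of 9 distal convoluted tubule, 4 of 7 principal cell and 6 of 9 intercalated cell markers were lower and 0 higher in Ctr shRNA. In Gcgr shRNA against control 1 of 18 proximal tubule, 3 of 7 principal cell and 2 of 9 intercalated cell markers were lower. No other tubule marker passed there. Podocyte, endothelial cell, and fibroblast and smooth muscle markers, 7, 8 and 8 tested, had 0 passing in both comparisons. Of 8 tested macrophage markers 2 were higher and 1 lower in Ctr shRNA, and 1 was higher and 0 lower in Gcgr shRNA against control. The macrophage list summed to 100.6 to 172 FPKM in the libraries labelled Gcgr shRNA, 72.8 to 175 FPKM in Ctr shRNA and 71.8 to 96.2 FPKM in control. Of 6 tested hepatocyte markers 1 was higher and 0 lower in the libraries labelled Gcgr shRNA against control (median 0.34), and 0 passed in Ctr shRNA against control (median 0.26), where 1 was higher without Ctr shRNA 20. The 8 listed hepatocyte markers summed to 225 to 351 FPKM in the libraries labelled Gcgr shRNA, 102 to 261 FPKM in Ctr shRNA and 111 to 173 FPKM in control. The most abundant of them was the transthyretin gene Ttr, which made up most of this sum in the libraries labelled Gcgr shRNA. Ttr was at 163 to 305 FPKM there, 75.5 to 198 FPKM in Ctr shRNA and 63.8 to 73.7 FPKM in control. Neither shRNA group overlapped with control. Not all markers went this way: in each shRNA group against control 4 of the 6 tested leaned higher and 2 leaned lower. Serpina1a peaked at 27.6 FPKM in the libraries labelled Gcgr shRNA, 36.2 FPKM in Ctr shRNA and 56.6 FPKM in control. Serpina1b peaked at 11.2, 16.5 and 19.8 FPKM in the same order, and the groups overlapped for both genes. Albumin (Alb) was at 2.29 to 4.76 FPKM in the libraries labelled Gcgr shRNA, 2.29 to 3.62 FPKM in Ctr shRNA and 2.25 to 3.35 FPKM in control, and Ahsg was at 0 in 14 libraries. The part of shifts in tubule, macrophage and hepatocyte markers in the members' values was not tested.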

How the data were processed

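Kidney RNA (Trizol) was sequenced from SMARTer mRNA-Seq libraries, as the labels' protocols say. The authors deposited FPKM values, with each gene's length and position (per the file headers). The submitters' processing notes name the build as GRCm38 and mm10, and no source used here gives the aligner, counter, annotation or use of strand. Of 42767 gene IDs found in GENCODE M21 (GRCm38), 98.1% had the same coordinates, as did 58 of the 62 members. Low FPKM values (up to 200 steps) times gene length were whole multiples of the worth of a single read in 100% of cases (tolerance 0.05 of a step), which gave the reads of each library. Of the 42794 complete gene lines, 31784 were above 0 in any library, and 1 incomplete line was left out.

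Values were taken as log2(FPKM + 1), which understates changes of low genes. The genes tested reached 1 FPKM in 4 or more libraries, with the 3 groups in a single fit, by limma 3.58.1 (limma-trend, R 4.3.3) with Benjamini-Hochberg adjustment over all 13279 genes at 0.05. Reported fold changes are on this scale. Gcgr was tested by an exact permutation test (SciPy 1.17.1). The steps were tested on simulated data. Named members are those that passed in any comparison, the 10 most abundant, and the 2 with the smallest p of a family with none passing. From the lists up to 4 passing genes were taken, and a result of the list of other conjugating enzymes is not reported here. Gsta1, Gsta4, Gstm2 and Ugt2b34, and values that only describe neighbours, were chosen after their values were seen. The rule for members uses names only, but these families and the lists were chosen with earlier results of these data known. Alternatives covered the pseudocount, filter, scaling, groups fitted, variance model, voom and each library left out. Shared sequence was counted over transcript stretches of 50 bases, and promoter windows were aligned with Biopython 1.88.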

Additional observations from a re-analysis of the deposited data

Results flagged for a closer look

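Of 75 groups of values (members and family sums within the Gcgr shRNA, Ctr shRNA or control libraries) 4 held a sample far from the others. Chance gives about 1 in 20, but Gsta1, Gsta4 and Gstm2 were put among the groups after their values were seen. The count therefore cannot be set against that rate. Gstm2 was at 93.5 FPKM in Ctr shRNA 20 and at 11.4 to 14.3 FPKM in the other Ctr shRNA libraries. Gsta4 was at 45.2 FPKM in the same library and at 6.65 to 13.2 FPKM in the others. Gstm2 was also low in Gcgr shRNA 13, at 8.44 FPKM, against 12.8 to 15.5 FPKM in the other libraries labelled Gcgr shRNA. The summed FPKM of the expressed Gst genes was 1556 in Ctr shRNA 4 and 1046 to 1210 in the other Ctr shRNA libraries. Ctr shRNA 4 was the highest of the 17 libraries for 8 of the 31 expressed members, beside 14.2% of all genes tested.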

How the results depend on the processing

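Gsta2, Gstp3, Ugt1a10, Ugt2b37 and Ugt3a1 passed in Ctr shRNA against control, and Ugt2b37 in Gcgr shRNA against control, under every alternative run. Of these, Gstp3 and Ugt1a10 reached the filter through the shRNA groups alone and could only be higher. With voom on the recovered reads 9 members passed in Ctr shRNA against control and 1 in Gcgr shRNA against control. With sample weights 12 members passed in Ctr shRNA against control, and 2087 of all genes, in place of 7 and 994; without the filter 597 of all genes passed. In Gcgr shRNA against control the member count was 2 with a pseudocount of 0.1, 5 with only these groups fitted, 7 with sample weights and 2 without both Ctr shRNA 20 and Gcgr shRNA 31, in place of 1. The count of all genes there was 155 without the filter, 438 with only these groups fitted and 1070 with sample weights, in place of 268. In Gcgr shRNA against Ctr shRNA 1 gene passed with a pseudocount of 0.1 and 1 with only these groups fitted, and 0 members in both. Leaving out each library in turn gave 5 to 9 members and 458 to 1265 genes in Ctr shRNA against control, 0 members and 0 to 3 genes in Gcgr shRNA against Ctr shRNA, and 1 to 3 members and 105 to 349 genes in Gcgr shRNA against control. Counts of all genes moved over 1.5 times in Ctr shRNA against control without Ctr shRNA 4 (658) or control 37, 38 or 39 (490, 480 and 458), and in Gcgr shRNA against control without Gcgr shRNA 13 or 35 (166 and 171) or control 37, 38 or 39 (136, 115 and 105). In Gcgr shRNA against Ctr shRNA 3 genes passed without Gcgr shRNA 13, 2 without Ctr shRNA 20 and 1 without control 38 or control 39. In Gcgr shRNA against control 2 or 3 members passed without Gcgr shRNA 32 or 34 or Ctr shRNA 4, 19 or 20. Fold changes that did not pass changed sign under an alternative in 41 cases, and none that passed did. The cause of these moves was not tested. Depth limits Gstp3, Gsta1 and Ugt1a10, whose control libraries held 24, 16 and 64 reads in all. No paired analysis was possible because the groups share no replicate numbers.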
